A study of Mus musculus with 42 samples.

Results

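Acmsd encodes aminocarboxymuconate semialdehyde decarboxylase, which diverts an intermediate of tryptophan breakdown away from NAD synthesis. It was described here with 9 other genes of tryptophan and nicotinamide metabolism in mouse liver, namely Ddc, Tdo2, Afmid, Kmo, Kynu, Haao, Qprt, Nampt and Nnmt. These are 10 of the 17989 genes measured. Each was read from the brightest probe set annotated with that symbol and no other, and each of the 10 had exactly 1 such probe set. Acmsd and Ddc were selected on their lower levels under a high-fat diet (HFD) in these same arrays, so their differences from controls are given as a description without a test. The other 8 members were added as enzymes of the same pathway.

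The arrays measured liver RNA of male C3HeB/FeJ mice of wild-type (WT) genotype, housed singly and sampled in the random-fed state. There were 8 arrays after 7 days of HFD at an age of 15 weeks, 8 after 14 days at 16 weeks and 8 after 21 days at 17 weeks. The 18 control arrays were of mice aged 15 to 17 weeks that ate a low-fat diet for at most 21 days. All 3 HFD groups were set against them, so the 3 comparisons share their controls. The labels number the arrays of a group without naming the animals, so each p-value reflects how far these arrays scatter, part of which may be technical. Array titles of the control and 21-day groups carry the word reanalysis and those of the 7-day and 14-day groups do not. Any batch that follows the word cannot be told apart from the diet at 7 and 14 days. Nor can it be told apart from HFD time between 21 days and the earlier times.

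In liver, tryptophan is opened by tryptophan 2,3-dioxygenase (Tdo2) and cut by arylformamidase (Afmid) to kynurenine. Kynurenine monooxygenase (Kmo), kynureninase (Kynu) and 3-hydroxyanthranilate dioxygenase (Haao) carry it on to aminocarboxymuconate semialdehyde. That compound either closes by itself to quinolinate, which Qprt turns into the NAD precursor nicotinate mononucleotide, or is taken by the Acmsd enzyme towards full oxidation. Ddc removes the carboxyl group of aromatic amino acids, and is known for making serotonin and dopamine. Nampt recycles nicotinamide into NAD, and Nnmt methylates nicotinamide for excretion.

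The stretches of DNA just before the starts of Ddc and Haao are printed to set a lower gene beside a pathway gene whose level did not pass any test. They come from RefSeq (GRCm38.p6), where 7 of the 9 members looked up, Acmsd being left out, had an entry. Each is the 250 bases before a gene start, read 5′ to 3′ on the gene's strand. Capitals mark the hexamer AGGTCA or its reverse complement TGACCT, a core element bound by nuclear receptors such as HNF4-alpha and PPAR-alpha partnered with RXR. Ddc start 1 lies at chr11:11898145-11898394 and Ddc start 2 at chr11:11890409-11890658, both on the minus strand, and Haao at chr17:83846791-83847040 on the minus strand.
Ddc start 1: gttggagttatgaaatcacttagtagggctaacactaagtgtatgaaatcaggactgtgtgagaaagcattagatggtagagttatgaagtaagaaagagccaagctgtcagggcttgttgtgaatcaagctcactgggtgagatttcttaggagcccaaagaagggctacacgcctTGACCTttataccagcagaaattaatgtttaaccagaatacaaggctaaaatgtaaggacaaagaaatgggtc
Ddc start 2: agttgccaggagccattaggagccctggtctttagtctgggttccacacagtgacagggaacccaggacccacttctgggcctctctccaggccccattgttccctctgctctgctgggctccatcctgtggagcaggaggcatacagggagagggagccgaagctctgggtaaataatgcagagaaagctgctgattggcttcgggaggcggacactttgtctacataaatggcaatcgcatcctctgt
Haao: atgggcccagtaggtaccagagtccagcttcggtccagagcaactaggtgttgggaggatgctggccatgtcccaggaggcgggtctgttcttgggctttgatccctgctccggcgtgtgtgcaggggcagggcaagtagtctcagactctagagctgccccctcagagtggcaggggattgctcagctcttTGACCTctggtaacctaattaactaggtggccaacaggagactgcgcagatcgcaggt

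The hexamer began 73 bases before the first Ddc start and 58 bases before the Haao start, and it was not among the letters before the Ddc start numbered 2. It was also found 6 bases before the start of Tdo2 and 151 bases before that of Nampt, which made 4 of these members' 8 entries. Searched the same way on both strands, it was present in 14% of all 32851 promoter entries. The longer HNF4-type motif CAAAGTCCA, searched on both strands (TGGACTTTG on the other), was in 0 of the 8 entries and in 0.384% of all. These matches describe letters in a window and show neither binding nor a cause.

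Acmsd was lower at every HFD time. The values are log2 intensities, on which 1 unit is a doubling. After 7 days of HFD the 8 arrays read 4.74, 4.87, 4.56, 4.56, 4.77, 4.95, 5.17 and 4.72. After 14 days they read 4.69, 4.84, 4.90, 4.60, 4.35, 4.79, 4.27 and 4.83. After 21 days they read 4.42, 4.90, 4.93, 4.71, 4.71, 4.51, 4.85 and 4.77, against a lowest of 4.94, a median of 5.97 and a highest of 6.59 over the 18 controls. The HFD arrays at 14 and 21 days all lay below every control, and at 7 days 6 of 8 did. The lowest control, replicate 2 at 4.94, stood apart from the next lowest, replicate 10 at 5.57, and the other 17 controls were above every HFD array. Complete separation from controls occurred for 0.245% of all genes at 7 days, 0.100% at 14 days and 0.0667% at 21 days; the members were chosen by this contrast, so the shares are printed for scale only.

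Acmsd averaged 4.79 ± 0.20 at 7 days, 4.66 ± 0.24 at 14 days and 4.72 ± 0.18 at 21 days of HFD (SD, n = 8 each), against 5.95 ± 0.39 in controls (SD, n = 18). The log2 difference from controls was -1.15 at 7 days, -1.29 at 14 days and -1.22 at 21 days, each with an SE of 0.12. That is 2.23-fold, 2.44-fold and 2.33-fold lower. In whole liver, fewer cells that express a gene and less RNA per cell cannot be told apart.

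**Figure D1:**
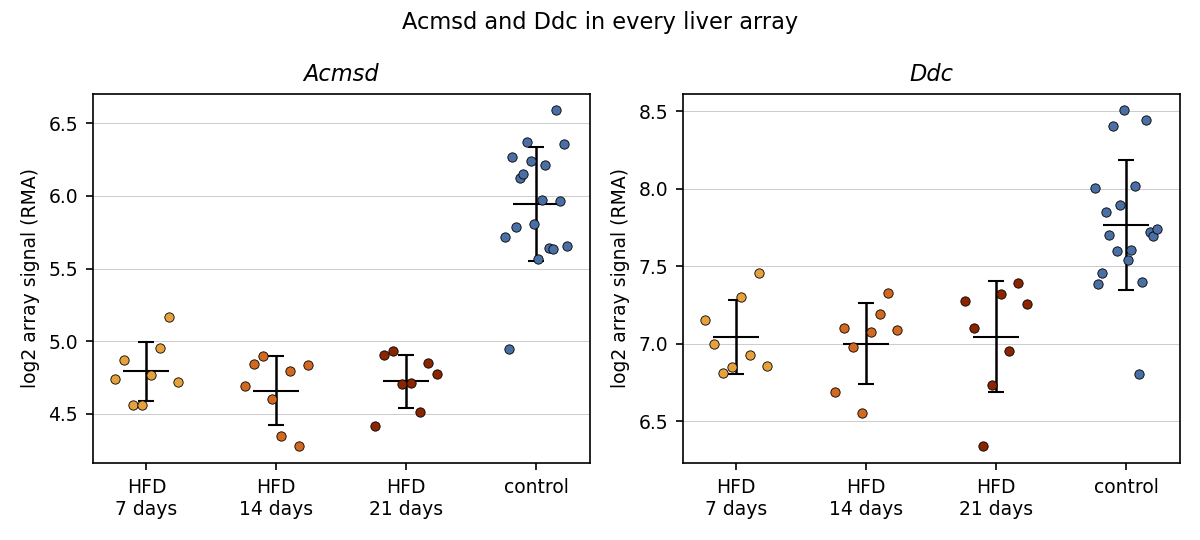
Log2 intensity of Acmsd and of Ddc on each array (points) in the 7-day, 14-day and 21-day HFD groups (n = 8 each) and in controls (n = 18), with the mean and SD. Acmsd averages lie between 4.66 and 4.79 under HFD and at 5.95 in controls, while the Ddc groups overlap.

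Ddc, the aromatic amino acid decarboxylase, was lower by a smaller amount. After 7 days of HFD its 8 arrays read 7.15, 7.00, 6.81, 6.85, 7.30, 6.93, 7.46 and 6.86. After 14 days they read 6.69, 7.10, 6.98, 6.55, 7.08, 7.19, 7.33 and 7.09. After 21 days they read 7.28, 7.10, 6.34, 6.73, 7.32, 6.96, 7.39 and 7.26, against a lowest of 6.81, a median of 7.71 and a highest of 8.51 over controls. All 24 HFD arrays lay below the control mean, yet the groups overlapped: 4, 1 and 2 of the 18 controls were at or below the highest array of the 7-day, 14-day and 21-day groups. Ddc averaged 7.04 ± 0.24, 7.00 ± 0.26 and 7.05 ± 0.36 at 7, 14 and 21 days (SD, n = 8 each), against 7.77 ± 0.42 in controls (SD, n = 18). The log2 difference was -0.72 at 7 days, -0.76 at 14 days and -0.72 at 21 days, each with an SE of 0.14, or 1.65-fold, 1.70-fold and 1.65-fold lower.

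The 3 HFD times were also compared with each other. Between 21 days and the earlier times, HFD time cannot be told apart from age or from any batch that follows the word reanalysis. Between 7 and 14 days it cannot be told apart from age. Acmsd at 14 days differed from 7 days by a log2 of -0.13 (95% limits -0.43 to 0.17), at 21 days from 7 days by -0.07 (-0.36 to 0.23) and at 21 days from 14 days by 0.06 (-0.23 to 0.36). For Ddc these differences were -0.04 (-0.38 to 0.30), 0.00 (-0.34 to 0.34) and 0.05 (-0.30 to 0.39). By limma's F test over the HFD times, 0 of the 10 members passed, and 0 had an unadjusted p under 0.05. The smallest unadjusted p, 0.215, belonged to Nnmt, and the adjusted p was 0.9996 for each member. Over all genes 0.00556% passed this test, which is 1 gene. A p that misses the threshold does not show equal levels, and the limits give the sizes of difference these arrays allow.

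Of the 8 enzymes other than Acmsd and Ddc, 0 passed limma's test against controls at 7, 14 or 21 days, at an adjusted p (Benjamini-Hochberg over all genes) under 0.05. Over all genes 1.40% passed at 7 days, 0.667% at 14 days and 0.700% at 21 days. At an unadjusted p under 0.05, a level whose share of all genes is not given here, the members' counts were 0, 0 and 1. Their median log2 difference was 0.06, -0.10 and -0.12 at 7, 14 and 21 days, against -0.01, -0.00 and 0.01 for all genes. Of these 24 differences, 22 had 95% limits that stayed within 1.5-fold on both sides.

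The smallest unadjusted p among the 8 belonged to Tdo2, whose enzyme takes the first and rate-limiting step into the pathway. It ranged from 10.41 to 11.37 (median 10.84) at 7 days, from 10.56 to 11.25 (median 10.71) at 14 days and from 10.20 to 11.48 (median 10.74) at 21 days of HFD, against 10.44 to 11.85 (median 11.09) in controls. The ranges overlapped over most of their length. The Tdo2 log2 difference was -0.18 (limma adjusted p = 0.751), -0.29 (0.865) and -0.31 (0.713), each with an SE of 0.15. The unadjusted p at 21 days was 0.0421, and the 95% limits reached -0.59 at 14 days and -0.61 at 21 days, the only differences among the 24 to pass 1.5-fold.

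Haao, the dioxygenase that makes the substrate of the Acmsd enzyme, was measured most tightly. Its means were 10.87 ± 0.12, 10.80 ± 0.15 and 10.84 ± 0.15 at 7, 14 and 21 days (SD, n = 8 each), against 10.89 ± 0.14 in controls (SD, n = 18). With an SE of 0.06, the 95% limits of the log2 difference were -0.14 to 0.11, -0.21 to 0.04 and -0.18 to 0.08 at the 3 times. Qprt, the enzyme on the NAD side of the same branch, averaged 8.97 ± 0.19, 8.90 ± 0.09 and 8.85 ± 0.30 under HFD, against 8.87 ± 0.23 in controls.

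The enzymes in the middle of the pathway had no differences past the test either. Kmo averaged 9.46 ± 0.25, 9.28 ± 0.16 and 9.29 ± 0.42 at 7, 14 and 21 days, against 9.38 ± 0.27 in controls. Kynu averaged 10.09 ± 0.27, 9.90 ± 0.19 and 9.87 ± 0.43, against 10.02 ± 0.29 in controls. Afmid averaged 7.45 ± 0.17, 7.55 ± 0.27 and 7.45 ± 0.47, against 7.65 ± 0.33 in controls. For both nicotinamide enzymes the groups overlapped as well. Nampt, which recycles nicotinamide, averaged 6.21 ± 0.40, 5.97 ± 0.26 and 5.91 ± 0.55 under HFD, against 6.01 ± 0.41 in controls. Nnmt, which methylates it, averaged 4.14 ± 0.18, 3.95 ± 0.42 and 3.95 ± 0.16, against 4.10 ± 0.19 in controls (SD, n = 8 for each HFD group and 18 controls throughout).

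**Figure D2:**
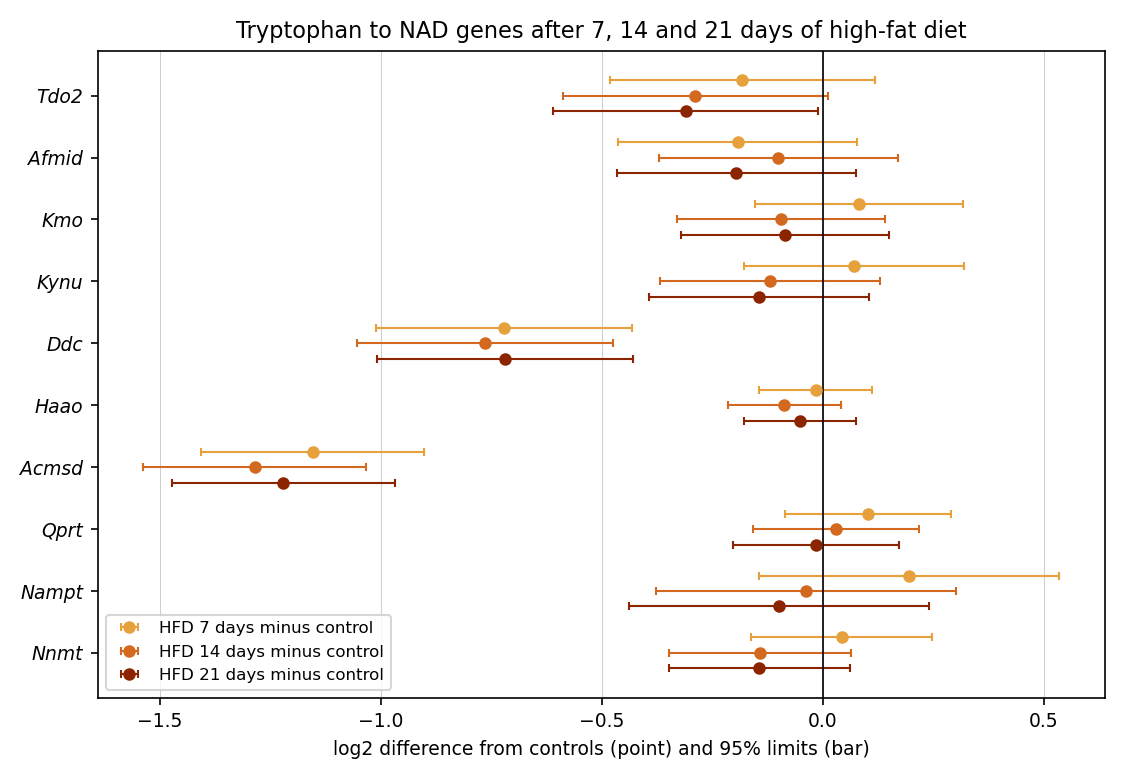
Log2 difference from controls of each of the 10 genes at 7, 14 and 21 days of HFD, with 95% limits. Acmsd lies between -1.29 and -1.15 and Ddc between -0.76 and -0.72, and both are shown as a description. Their limits are on the contrast that selected them, so they are not a test. The other 8 genes lie between -0.31 and 0.19.

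Other genes of tryptophan and NAD metabolism were read from a list of 52, of which 41 were measured. At 7 days 2 rose and 0 fell, while 1.16% of all genes rose; at 14 and 21 days 0 passed limma's test. At an unadjusted p under 0.05 the counts were 8, 3 and 6. The list's median log2 difference was 0.02, 0.02 and 0.01. Both genes that rose, Nadk and Nmrk1, were on the list for NAD synthesis, of which 11 of 12 genes were measured. That list includes Nadk although its enzyme turns NAD into NADP rather than making NAD. The tryptophan branch enzymes and transporters (15 of 20 measured), the enzymes that use NAD or clear nicotinamide (12 of 16) and those of the vitamin B6 cofactor (3 of 4), which Ddc and Kynu need, had 0 called at each time. Over all genes 1.40% were called at 7 days, 0.667% at 14 days and 0.700% at 21 days, so 0 among so few does not set these 3 groups apart. At an unadjusted p under 0.05 these 3 groups had 3, 3 and 0 genes at 7 days. The share of all genes at that level is not given here. These counts and those of the whole list therefore cannot be set against it.

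Nadk, the kinase that turns NAD into NADP, ranged from 8.26 to 8.71 (median 8.60) after 7 days of HFD, against 7.77 to 8.36 (median 8.13) in controls. On 6 of the 8 HFD arrays it was above every control. Nadk averaged 8.54 ± 0.18 at 7 days (SD, n = 8), against 8.10 ± 0.19 in controls (SD, n = 18), a log2 difference of 0.44 with an SE of 0.08, or 1.36-fold (limma adjusted p = 3.15e-04). At 14 days it averaged 8.35 ± 0.07 and at 21 days 8.35 ± 0.24, with log2 differences of 0.25 at both times (limma adjusted p = 0.235 and 0.232). With the 7-day HFD arrays 5 to 8 alone the 7-day difference was 0.36 and did not pass (limma adjusted p = 0.120).

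Nmrk1, which phosphorylates nicotinamide riboside, read low on these arrays, close to the background of 2.86. Background here is the 95th percentile of 929 olfactory receptor genes, which are known from the nose. Nmrk1 ranged from 2.99 to 4.13 (median 3.45) at 7 days, against 2.63 to 3.27 (median 2.94) in controls, so that the groups overlapped. The log2 difference at 7 days was 0.52 with an SE of 0.13, or 1.43-fold (limma adjusted p = 0.0294). It no longer passed with controls 1 to 9 alone (adjusted p = 0.158), with controls 10 to 18 alone (0.170), with HFD arrays 1 to 4 alone (0.118), or without 7-day replicate 2, 3, 5 or 8 (at most 0.140). At 14 and 21 days the log2 differences were 0.34 and 0.27 (limma adjusted p = 0.558 and 0.742).

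Of the named genes that did not pass, Naprt, which makes NAD from nicotinic acid, differed by 0.22, 0.12 and 0.31 on the log2 scale at 7, 14 and 21 days (limma adjusted p = 0.647, 0.980 and 0.631). Nadsyn1, which makes the last step of NAD synthesis, differed by 0.21, 0.11 and 0.24 (0.584, 0.977 and 0.691). Ido2, an enzyme that opens tryptophan as Tdo2 does, differed by 0.02, 0.03 and -0.26 (0.985, 0.998 and 0.866). Aldh8a1, Nmnat1 and Aox3 were not analysed here.

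Regulators and glucocorticoid target genes were read from 1 list of 12, of which 11 were measured. By limma 1 rose at 7 days, 1 at 14 days and 0 at 21 days, and 0 fell. Over all genes 1.16% rose at 7 days and 0.506% at 14 days. The one that rose was Ppara, the nuclear receptor for fatty acids, at both times. It averaged 8.10 ± 0.33, 7.997 ± 0.26 and 7.79 ± 0.43 at 7, 14 and 21 days (SD, n = 8 each), against 7.44 ± 0.31 in controls (SD, n = 18). The Ppara differences were 1.57-fold at 7 days (log2 0.65, limma adjusted p = 0.00265), 1.47-fold at 14 days (log2 0.55, 0.0360) and log2 0.34 at 21 days (0.530). The 7-day call ended with HFD arrays 5 to 8 alone (limma adjusted p = 0.246) and with controls 10 to 18 alone (0.0819). The 14-day call ended without any 1 of 11 arrays (6 controls and 5 at 14 days; adjusted p at most 0.143), and with controls 10 to 18 (0.483), HFD arrays 1 to 4 (0.363) or HFD arrays 5 to 8 (0.149) alone. It also ended with median centring (limma adjusted p = 0.0616). Hnf4a, a master regulator of hepatocyte genes, differed by -0.18, -0.19 and -0.26 (limma adjusted p = 0.608, 0.886 and 0.468). Ppargc1a, a coactivator of fasting metabolism, differed by 0.13, 0.17 and -0.01 (0.781, 0.958 and 0.997).

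Tat, the glucocorticoid-responsive enzyme that opens tyrosine breakdown, differed by -0.17, -0.32 and -0.22 (limma adjusted p = 0.779, 0.811 and 0.911). It is also 1 of 8 listed genes of phenylalanine and tyrosine breakdown, of which 6 were measured and 0 were called at any time by limma. Over all genes 1.40% were called at 7 days, 0.667% at 14 days and 0.700% at 21 days. At such shares, 0 among 6 genes does not set them apart from all genes. At an unadjusted p under 0.05, a level whose share of all genes is not given here, the count was 2 at each time.

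**Figure D3:**
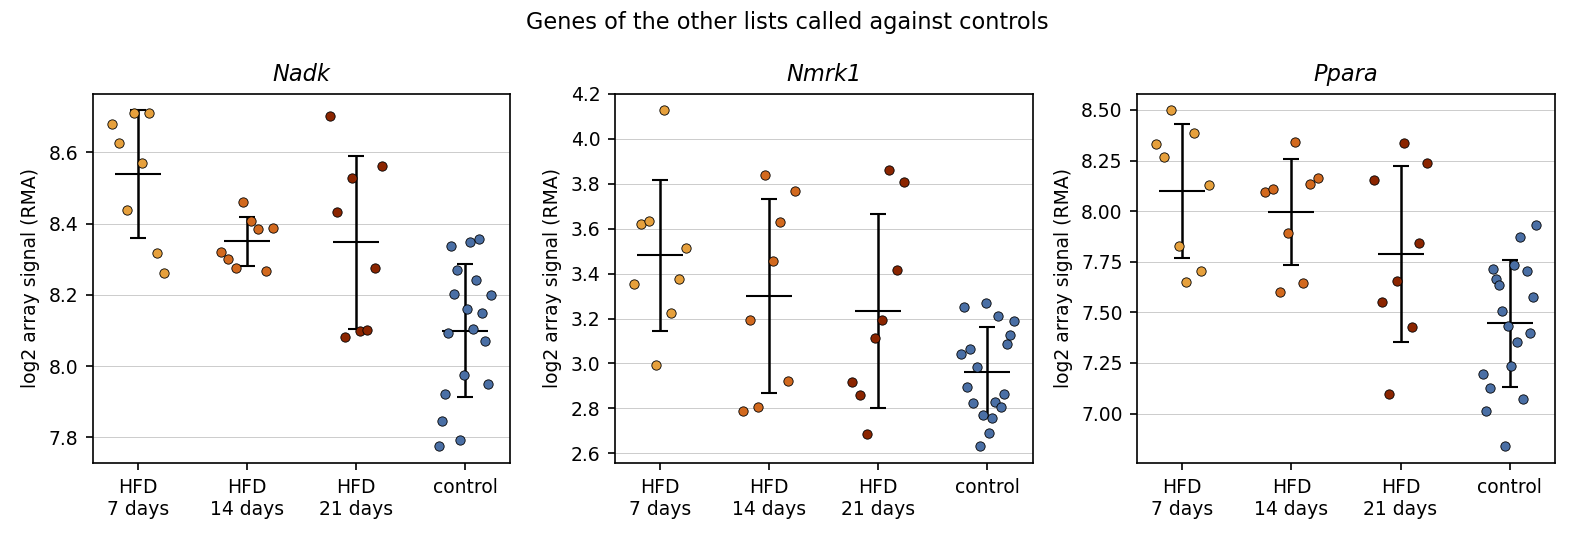
Log2 intensity of Nadk, Nmrk1 and Ppara on each array (points) in the 3 HFD groups (n = 8 each) and in controls (n = 18), with the mean and SD. Nadk at 7 days averages 8.54 under HFD against 8.10 in controls, and Nmrk1 lies close to the background of 2.86.

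Within the groups, the 10 genes did not vary as 1 block. Each value was taken as its deviation from the mean of its group over the 42 arrays, and correlations were computed for all 45 pairs with permutation within groups and Benjamini-Hochberg adjustment over the 45. Of these, 19 passed at an adjusted p under 0.05. The share of all gene pairs that would pass is not given here, so the count does not set these genes apart. Acmsd passed with 0 of the other 9 genes, with r between -0.05 and 0.29. Its highest r was with Ddc (r = 0.29, rho = 0.24, permutation p = 0.103, adjusted p = 0.186), and without the 2 arrays farthest from the Acmsd median r was 0.13. Its highest rho was with Kmo (rho = 0.34, permutation p = 0.0268, adjusted p = 0.0575; r = 0.21).

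Tdo2, Kmo, Kynu, Haao and Nampt varied together, a set named after the values were seen. All 10 of its pairs passed, with r from 0.59 to 0.87 and a median of 0.71. The set was picked from these same correlations, so these passes describe it and are not separate support for it. The pair Tdo2 and Kynu had r = 0.87 and rho = 0.88 (permutation p = 1e-05, the smallest 100000 draws can give; adjusted p = 5.63e-05), and r was 0.83 without the 2 farthest arrays. The second pattern was Afmid with Qprt, at r = 0.85 and rho = 0.72 (permutation p = 1e-05, adjusted p = 5.63e-05), and 0.78 without the 2 farthest arrays. Afmid or Qprt with any of those 5 had r between -0.61 and -0.18, and 5 of the 10 pairs passed. Of 12147 genes above background, predicted ones included, r was over 0.7 for 887 with Tdo2, 857 with Kynu and 579 with Kmo. The counts were 164 with Haao, 219 with Nampt, 565 with Afmid and 703 with Qprt. With Ddc the count was 15, and with Acmsd or Nnmt 0. Neither pattern is therefore shown to be particular to this pathway. Ddc was joined to Kynu at r = 0.63 and rho = 0.73 (permutation p = 2e-05, adjusted p = 1.00e-04), to Haao at 0.48 and to Kmo at 0.40, while Nnmt passed with 0 of 9.

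**Figure D4:**
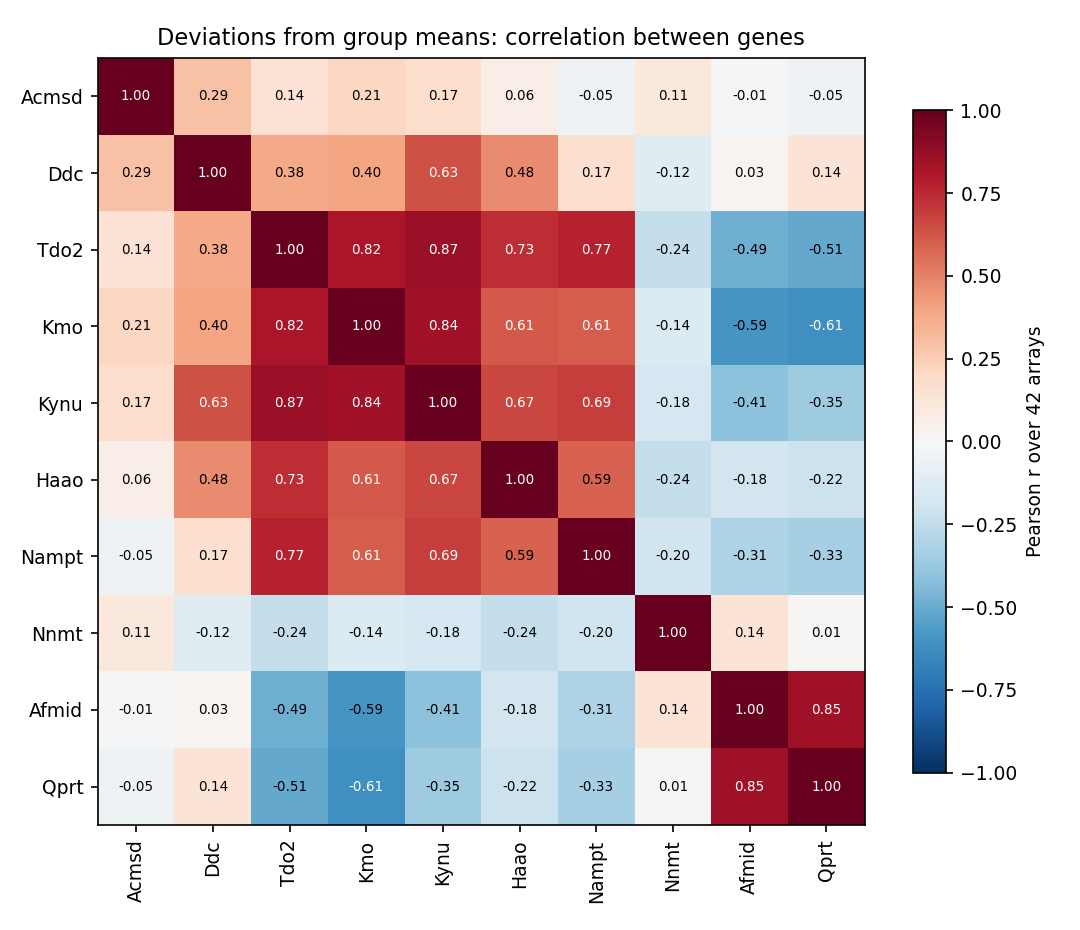
Pearson correlation of the deviations from group means of the 10 genes over 42 arrays, coloured from -1 to 1. Tdo2, Kmo, Kynu, Haao and Nampt form a block between 0.59 and 0.87, Afmid and Qprt a pair at 0.85, and Acmsd lies between -0.05 and 0.29 with all others.

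The array numbers moved with part of this pattern. In each HFD group the arrays numbered 5 to 8 had more Malat1, a nuclear RNA, than those numbered 1 to 4: they averaged 9.05 and 6.79 at 7 days, 8.96 and 6.19 at 14 days, and 9.39 and 6.97 at 21 days. Tdo2 averaged 11.14 on arrays 5 to 8 and 10.69 on arrays 1 to 4 at 7 days, 10.96 and 10.65 at 14 days, and 11.17 and 10.40 at 21 days. Ddc, Kmo, Kynu, Haao and Nampt also averaged more on arrays 5 to 8 in all 3 groups, by 0.04 (Kmo at 14 days) to 0.97 (Nampt at 21 days). Afmid and Nnmt averaged less, with differences from -0.41 (Afmid at 21 days) to -0.03 (Nnmt at 7 days). The smallest of these lie well inside the scatter of the arrays. The share of all genes with 1 order in all 3 groups is not given here. Acmsd averaged 4.90 and 4.68, 4.56 and 4.76, and 4.71 and 4.74, so that its order varied between groups. The labels do not say what the numbers stand for.

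Within the arrays numbered 1 to 4 and 5 to 8 of the 24 HFD arrays, the pairs among Tdo2, Kmo, Kynu, Haao and Nampt had r from 0.28 to 0.86 with a median of 0.55, and over the 18 controls from 0.45 to 0.82. Afmid with Qprt had r = 0.81 within these sets and 0.89 over controls. Afmid or Qprt with the 5 had r between -0.50 and 0.01 within these sets, and Ddc with Kynu had 0.55. The pair Kynu and Nampt had r = 0.28 within these sets, against 0.69 over the 42 arrays. No p-value was computed within these sets.

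**Figure D5:**
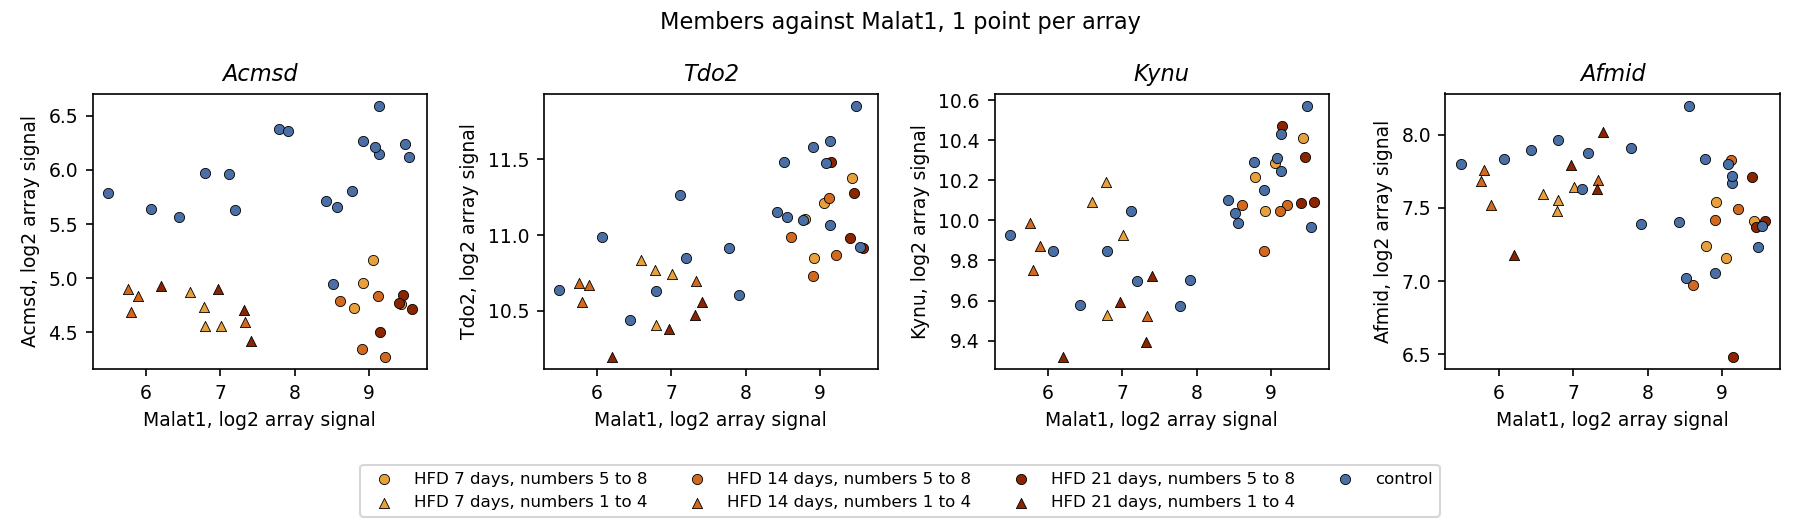
Log2 intensity of Acmsd, Tdo2, Kynu and Afmid against that of Malat1 on each of the 42 arrays, coloured by HFD time or control, with circles for HFD arrays numbered 5 to 8 and triangles for 1 to 4. In every HFD group the arrays numbered 5 to 8 have more Malat1; at 21 days Tdo2 averages 11.17 on them and 10.40 on those numbered 1 to 4, and Acmsd 4.71 and 4.74.

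At 21 days the number of members called differed between these sets of numbers. With HFD arrays 1 to 4 alone against all 18 controls, limma called 3 of the 8 enzymes: Tdo2 at a log2 difference of -0.69 (adjusted p = 0.0192), Kynu at -0.51 (0.0321) and Kmo at -0.44 (0.0388). In that fit 5.02% of all genes were called. With HFD arrays 5 to 8 alone 0 of the 8 were called, 1.94% of all genes were, and the log2 differences were 0.07 for Tdo2 (adjusted p = 0.883), 0.22 for Kynu (0.398) and 0.27 for Kmo (0.327). The difference between the sets itself was not tested. Acmsd was lower in both sets at each time, with log2 differences of -1.26, -1.19 and -1.21 with arrays 1 to 4 at 7, 14 and 21 days, and of -1.04, -1.38 and -1.24 with arrays 5 to 8. Ddc had log2 differences of -0.81, -0.94 and -0.90 with arrays 1 to 4, and of -0.63, -0.59 and -0.53 with arrays 5 to 8. For Acmsd and Ddc these values are a description, since both were selected on this contrast in these same arrays.

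Genes that varied most like Acmsd within groups were ranked by Pearson r over the 42 arrays among 11503 named genes above background. The highest were Leprot at 0.52, Polr1e at 0.49, and Psmg2, Gmeb2 and Surf6 at 0.48 each. Within the number sets of the 24 HFD arrays, r was 0.47 for Leprot, 0.47 for Polr1e and 0.46 for Surf6. There it was 0.10 for Psmg2 and 0.24 for Gmeb2. The lowest were Bmp8b at -0.50, Bfsp1 at -0.49 and B4galt3 at -0.48, and within the number sets these were -0.37, -0.01 and -0.50. These genes are the ends of a ranking of 11503, and how far r runs by chance in such a ranking was not tested. With predicted genes counted as well, 0 of 12147 genes above background had r over 0.7 with Acmsd or with Nnmt, whereas 15 did with Ddc, 887 with Tdo2 and 857 with Kynu. The genes most like Ddc were Tars, a threonyl-tRNA synthetase, at 0.81, Caprin1 at 0.78 and Slc16a1, a monocarboxylate transporter, at 0.78. These are descriptions over arrays that share labelling, scanning and those sets of numbers.

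The labelled tissue was checked against marker genes. The hepatocyte markers (6 of 7 measured) were all above background, with a median of their mean level of 12.66, 12.66 and 12.61 at 7, 14 and 21 days, against 12.68 in controls. Kidney tubule markers, read because kidney is another known site of Acmsd, had 1, 2 and 2 of 6 above background under HFD and 2 of 6 in controls. All 14 measured pancreatic acinar markers were above background, with mean levels from 3.45 to 8.92 at 7 days, 3.41 to 8.62 at 14 days and 3.42 to 5.999 at 21 days, against 3.36 to 7.88 in controls. Kupffer cell markers (13 of 14 measured) had medians of 5.39, 5.24 and 5.22, against 5.12 in controls, and stellate and endothelial markers (7 of 8) had 5.39, 5.38 and 5.30, against 5.24. With the acinar mean as a covariate the Acmsd difference was -1.17, -1.30 and -1.21, and with Malat1 as a covariate -1.15, -1.27 and -1.23, again as a description. The part of the Kupffer, stellate and endothelial levels in the results was not tested.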

How the data were processed

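Mouse liver RNA was hybridised to 42 1-colour Affymetrix gene arrays after extraction with a DNase step, per the labels' protocols. The deposited log2 values were made by the authors with RMA in Affymetrix Expression Console 1.1, per the submitters' processing notes; RMA corrects the background, normalizes and sums probes into probe sets, so raw intensities were not used and small differences are compressed. Of 32624 probe sets, 19559 carried 1 symbol, 1469 several and 11596 none listed, from GEO's platform annotation. The brightest single-symbol probe set stood for each of 17989 genes; 1 probe set lacked a value on 33 arrays. Array medians ran from 3.39 to 3.57, and no 2 arrays were alike (smallest SD of their difference 0.20). The number of arrays limits precision: the median SE was 0.09 against controls.

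Groups came from the labels. All 42 arrays entered 1 limma fit (3.58.1, R 4.3.3; lmFit, eBayes) with group means and no covariate, and p-values were adjusted by Benjamini-Hochberg over all genes. Calls are at an adjusted p under 0.05. On data simulated for 7 days against controls over 17989 genes, the fit recovered 88 of 100 genes set at a log2 change of 0.5. It recovered 100 of 100 at 1, with 5 false calls. The simulated noise was normal and independent between genes, with each gene's pooled variance. It left out the variation that genes share on these arrays, so these rates check the fit and may not carry over to the real data. Promoter letters came from RefSeq. The promoter of Acmsd is not reported here.

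The members and lists were chosen with earlier results of these data known. Named were all members, every list gene called against controls at any time, 11 fixed genes, and the 5 highest and 3 lowest correlates of Acmsd and 3 highest of Ddc, passing over predicted genes. Where a further gene is named, it was chosen after its values were seen. Alternatives were quantile normalization, median centring, a filter on dim genes, the mean of all probe sets, trend and robust eBayes, array weights, a replicate block, subsets of arrays by number, covariates, and each array left out in turn. 25 list genes were not analysed here.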

Additional observations from a re-analysis of the deposited data

Results flagged for a closer look

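Of 30 groups of 8 HFD arrays (10 genes at 3 times), 2 held an array whose gap to its nearest neighbour was a larger part of the group's range than Dixon's 95% value allows, where chance gives about 1 in 20. Haao on HFD 7-day replicate 5 read 11.13, with a gap of 0.620 of the range. Qprt on HFD 14-day replicate 7 read 9.09, with a gap of 0.549 of the range. Neither gene passed a test against controls.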

How the results depend on the processing

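Apart from leaving out single arrays, 13 alternatives were run. Correlations taken within the HFD arrays numbered 1 to 4 and 5 to 8 together were compared as well. Of 239 values compared, 217 were counted as kept. Nadk, Nmrk1 and Ppara had to keep their direction and their side of the threshold. The other values had no such threshold and had only to stay near the main result. A count of 3 in place of 2 was thus kept, and a correlation had to stay within 0.169. Acmsd and Ddc stayed lower in all 13: Acmsd from -1.26 to -1.04 at 7 days, -1.38 to -1.19 at 14 and -1.24 to -1.19 at 21, and Ddc from -0.82 to -0.62, -0.94 to -0.59 and -0.90 to -0.53. Without single arrays Acmsd ran from -1.21 to -1.12, -1.34 to -1.23 and -1.28 to -1.18. Both genes were selected on this contrast in these same arrays, so these ranges are a description and not separate support for the differences. The count of other tryptophan and NAD genes at 7 days, 2, was 5 with array weights (Nadk, Nmrk1, Maob, Nnt and Nt5e), 3 with quantile normalization or the acinar covariate, and 1 with the HFD arrays 5 to 8, the controls 1 to 9 or the controls 10 to 18 alone; without single arrays it ran from 1 to 3. With the HFD arrays 1 to 4 it was 2, but of Nadk and Nnt. Of all genes, 1.39% were called at 7 days with the HFD arrays 1 to 4 and 0.800% with those numbered 5 to 8. For the other alternatives the share of all genes called is not given here. Their counts at 7 and 14 days therefore cannot be read as a result about these genes. Nadk lost its call only with the HFD arrays 5 to 8 (0.36, adjusted p = 0.120). At 14 days the count, 0, was 1 with array weights (Nnt, 0.54, limma adjusted p = 0.0148) and 0 to 1 without single arrays (Nnt without 14-day replicate 6, 0.66, 0.0458). At 21 days the count, 0, was 4 with the HFD arrays 1 to 4 (Nadk, Sirt4, Kyat1 and Aadat), where 5.02% of all genes were called. It was 1 with those numbered 5 to 8 (Nmrk1), where 1.94% of all genes were called. The count of the 8 members was 3 with the HFD arrays 1 to 4. The median r among Tdo2, Kmo, Kynu, Haao and Nampt, 0.71, was 0.53 with Malat1 as a covariate. Ppara at 7 days lost its call with HFD arrays 5 to 8 (0.246) and with controls 10 to 18 (0.0819). Ppara at 14 days lost it with median centring (0.0616), with either number set of the HFD arrays (1 to 4 or 5 to 8) and with the replicate block (0.0875). The cause of these changes was not tested.

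The array numbers recur across groups, but the labels give them no meaning. Of 48 same-number pairs, 22 had a correlation of deviations over 0.1 (range -0.37 to 0.52), and the same number was the best partner in 6, so the numbers were not taken to pair the samples. With the replicate block the 7-day count was 1 (Nadk), Nmrk1 being lost (0.55, adjusted p = 0.126), and the Acmsd differences were -1.16, -1.29 and -1.23.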
